A study of Mus musculus with 9 samples.

Results

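NF-kB is a family of dimeric transcription factors, and the genes described here encode its 5 subunits (Nfkb1, Nfkb2, Rel, Rela and Relb) together with the IkB proteins Nfkbia, Nfkbib, Nfkbie and Nfkbiz and the feedback inhibitor Tnfaip3 (A20). These 10 genes were taken by name from a table of 57238 entries, and all 10 passed the filter on low counts, as did 15028 genes of the table. They were followed in bulk RNA of dendritic cells differentiated over 6 days from bone marrow of wildtype C57BL/6 mice (BMDCs) with the cytokine GM-CSF at 20 ng/ml. Control (CTR) BMDCs were left untreated. NE-treated BMDCs received exosomes of NIH-3T3 cells, an immortalized mouse fibroblast line, for 24 h, and TDE-treated BMDCs received tumor cell-derived exosomes for 24 h. Each group had 3 libraries, numbered as replicates 1 to 3. The labels do not name the tumor line, and the study's methods give TC-1 or MC38 cells as the source of exosomes that are not specified further. Neither source says whether the libraries of a group came from separate mice or cultures, so the tests measure the spread between these libraries, which may be technical.

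In resting cells, IkB proteins such as IkB-alpha (Nfkbia), IkB-beta (Nfkbib) and IkB-epsilon (Nfkbie) hold NF-kB dimers in the cytoplasm. Signals from toll-like, interleukin-1 and tumor necrosis factor receptors activate the IkB kinases, the IkB proteins are degraded and the dimers enter the nucleus. Among the genes they induce are Nfkbia and Tnfaip3, which close a negative feedback loop, and Nfkbiz, whose nuclear product IkB-zeta serves as a cofactor for a later set of target genes. In dendritic cells, NF-kB is known for its part in maturation, cytokine production and survival.

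The libraries held between 17469782 and 21092943 estimated reads on genes. A floor of 3 reads corresponded to 0.142 to 0.172 CPM (the reads of a gene relative to the size of its library, scaled by the TMM method), covers counting error only, and lay far under every value given for the 10 genes. CTR replicate 1 stood apart from the rest. Its correlation with any other library was at most 0.911, whereas the lowest among the other 8 libraries was 0.954 (Pearson's r of log2 CPM across genes, which are not independent replicates). Its deviation from the mean of CTR replicates 2 and 3 moved with gene length, from a median log2 difference of 0.96 in the shortest of 4 equal bins of genes to -0.74 in the longest. Tests of the 10 genes and counts of the lists against CTR are therefore given with and without it. The TDE libraries resembled each other closely, but differed by more than sampling noise (chi-square of 2.21 to 4.12 per gene, against 1 for pure counting error). All were kept as separate replicates. On the same measure NE replicate 3 was at 52.4 and 47.2 against NE replicates 1 and 2, which were at 3.35 against each other. CTR replicate 1 was at 508 and 616 against CTR replicates 2 and 3, which were at 28.6 against each other. Of 10 dendritic cell markers, 10 passed the filter. The summed level of this list was 4222 to 12770 CPM in CTR, 4020 to 4986 CPM in NE-treated and 2146 to 2271 CPM in TDE-treated BMDCs. The 12770 CPM belonged to CTR replicate 1, without which CTR was at most 5145 CPM. Cd74, H2-Aa and H2-Ab1 had the largest CTR means (4455, 1094 and 982 CPM) and weigh most in the sum. Flt3 and Zbtb46 were at 14.1 and 18.3 CPM in CTR and at 14.3 and 14.7 CPM in TDE-treated BMDCs.

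Nfkbiz, Nfkbia and Tnfaip3 were higher in TDE-treated than in CTR BMDCs, and Nfkbie was lower. Of the 10 genes, 3 passed the test as higher, where 7.57% of all tested genes did, and 1 passed as lower, where 9.34% did (quasi-likelihood test of edgeR, fitted to the 9 libraries together, Benjamini-Hochberg adjusted p under 0.05). All 4 encode inhibitors or IkB family proteins, and 0 of the 5 subunit genes passed. At an unadjusted p under 0.05 there was 1 subunit gene, Relb, against 34.8% of all tested genes. DESeq2 called 0 of the subunit genes, where it called 20.6% of all genes with an adjusted p, and limma voom with quality weights called 1, where it called 52.5%. The CTR and TDE libraries did not overlap for 7 of the 10 genes, against 44.0% of all tested genes. The median log2 fold change of the 10 genes was 0.07, against -0.06 over all tested genes.

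Nfkbiz showed the largest change. It was at 15.2, 24.9 and 25.2 CPM in CTR replicates 1, 2 and 3 and at 168, 163 and 172 CPM in the TDE-treated libraries. The NE-treated libraries, at 21.9, 25.3 and 22.3 CPM, overlapped the CTR libraries, and every TDE-treated library was above both groups. In TDE-treated against CTR BMDCs this was a 7.70-fold rise, or 2.94 on the log2 scale (standard error, SE, 0.208, adjusted p = 0.000132). Leaving out CTR replicate 1, which had the lowest CTR value, gave 2.73 (adjusted p = 3.3e-07).

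Nfkbia, which encodes IkB-alpha, the inhibitor that is resynthesized fastest after NF-kB activation, was at 132, 142 and 123 CPM in CTR and at 306, 307 and 287 CPM in TDE-treated libraries. On the CPM scale, CTR replicate 1 did not stand apart for this gene, and the groups were separated by a wide gap. It rose by 1.18 on the log2 scale (SE 0.138, adjusted p = 0.00123), a 2.27-fold rise, and 1.17 without CTR replicate 1. The log2 fold changes of Nfkbiz and Nfkbia remained past the threshold under each of the 18 alternative settings tried.

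Tnfaip3 encodes A20, a ubiquitin-editing enzyme that terminates signaling from receptor complexes to the IkB kinases. It was at 22.9, 61.0 and 60.6 CPM in CTR and at 115, 104 and 115 CPM in TDE-treated libraries. The lowest value belonged to CTR replicate 1, and the TDE-treated libraries were above all CTR libraries. The rise was 1.20 on the log2 scale (SE 0.327, adjusted p = 0.0395). In the fit without CTR replicate 1 it was smaller but with less spread, at 0.86 (SE 0.0845, adjusted p = 8.9e-05). The call was lost under 9 of 18 alternative settings. It was lost with library totals (adjusted p = 0.100), the 6 libraries compared (0.117) and a setting given with the alternatives. In the other lost calls the adjusted p was 0.0719, 0.0714 and 0.0641 without NE replicate 1, 2 or 3, and 0.120, 0.100 and 0.121 without TDE replicate 1, 2 or 3.

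Nfkbie, the gene of IkB-epsilon, moved in the opposite direction to Nfkbia. It was at 67.6, 62.1 and 57.4 CPM in CTR and at 42.2, 46.2 and 42.4 CPM in TDE-treated libraries, without overlap. On the log2 scale the difference was -0.51 (SE 0.116, adjusted p = 0.0202), and -0.46 (adjusted p = 0.00226) without CTR replicate 1. The call was lost under 8 of 18 alternative settings. These were leaving out CTR replicate 2 (adjusted p = 0.0546) or TDE replicate 1, 2 or 3 (0.106, 0.0658 and 0.105), library totals (0.0883), no filter (0.115), the 6 libraries compared (0.0765) and a setting given with the alternatives. Nfkbib, the gene of IkB-beta, was at 83.0, 35.6 and 29.9 CPM in CTR and at 41.3, 41.1 and 43.9 CPM in TDE-treated libraries. The TDE-treated libraries lay above CTR replicates 2 and 3 and under CTR replicate 1. The log2 difference of -0.23 (SE 0.357, adjusted p = 0.655) turned to 0.35 (SE 0.150, adjusted p = 0.102) without CTR replicate 1, so that no direction can be given for Nfkbib.

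**Figure D1:**
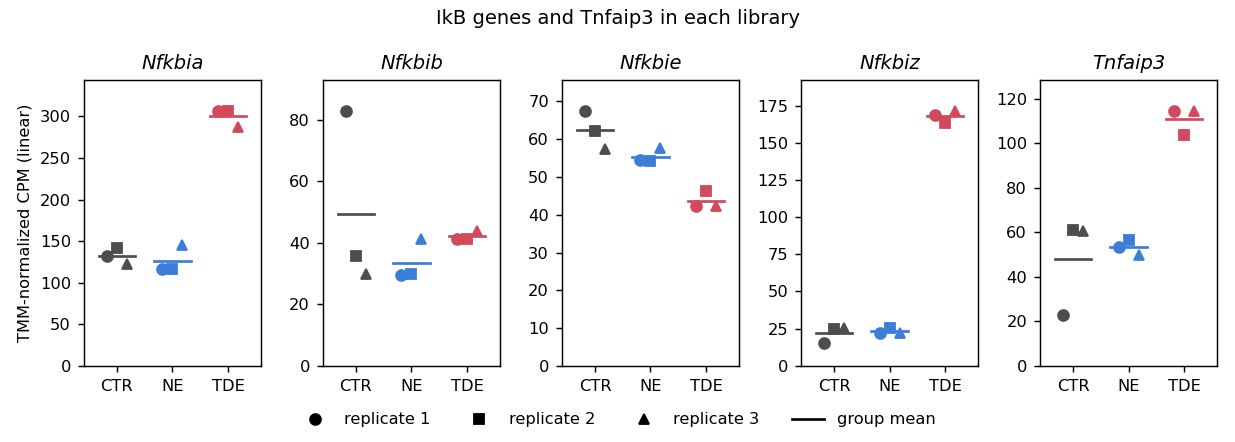
TMM-normalized CPM (linear axes from 0) of Nfkbia, Nfkbib, Nfkbie, Nfkbiz and Tnfaip3 in the CTR, NE-treated and TDE-treated libraries. Points are single libraries with one symbol per replicate number and lines are group means. The TDE-treated libraries lie above all others for Nfkbia, Nfkbiz and Tnfaip3 and under all others for Nfkbie, and CTR replicate 1 lies apart for Nfkbib and Tnfaip3.

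The sequences just upstream of the start sites are shown for both feedback genes that rose and had an entry (of Tnfaip3, the first of its start sites), for the IkB gene that fell, and for Rel, a subunit gene that did not pass the test. They come from RefSeq (build GRCm38.p6), in which 7 of the 10 genes had an entry. Each is the stretch of 150 bases that ends at the base before the RefSeq start site, on the strand of the gene. Matches to the NF-kB consensus motif, searched on both strands, are in capitals. In GENCODE vM21 the Tnfaip3 gene runs to 19015657, so its printed stretch lies within that gene and holds 13 exonic bases. The stretch of Rel holds 1 exonic base of Rel in that annotation. Nfkbia lies at chr12:55492648-55492797, minus strand; Tnfaip3 at chr10:19015411-19015560, minus strand; Nfkbie at chr17:45555550-45555699, plus strand; and Rel at chr11:23770970-23771119, minus strand.

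Nfkbia: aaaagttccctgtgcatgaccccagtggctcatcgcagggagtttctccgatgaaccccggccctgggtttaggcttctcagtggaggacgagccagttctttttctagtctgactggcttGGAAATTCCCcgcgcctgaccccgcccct
Tnfaip3: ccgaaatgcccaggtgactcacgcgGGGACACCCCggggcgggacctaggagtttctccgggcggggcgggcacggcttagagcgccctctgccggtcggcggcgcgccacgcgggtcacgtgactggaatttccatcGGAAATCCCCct
Nfkbie: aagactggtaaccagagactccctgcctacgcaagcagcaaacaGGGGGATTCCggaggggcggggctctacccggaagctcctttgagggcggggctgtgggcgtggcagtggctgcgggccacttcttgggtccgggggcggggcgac
Rel: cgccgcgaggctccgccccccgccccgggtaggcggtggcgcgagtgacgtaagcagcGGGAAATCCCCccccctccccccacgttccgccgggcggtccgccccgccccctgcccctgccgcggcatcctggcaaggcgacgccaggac

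The match upstream of Nfkbia began 29 bases before the start site, those of Tnfaip3 began 125 and 12 bases before it, and that of Nfkbie 106 bases before it. In Rel, overlapping matches began 92 and 91 bases before the start site. In windows from 250 bases before to 50 bases after a start site, 5 of the 7 genes with an entry held at least 1 match (Nfkbia, Tnfaip3, Nfkbie, Rel and Nfkb2), and Rela and Nfkbib held none. Some genes had more than 1 window. Counted by window, 7 of the 10 windows of these genes and 4.51% of all 32851 windows of the table held a match. Overlapping windows of Nfkb2 shared a match. The genes with a match thus included genes that rose, a gene that fell and genes that did not pass the test. A match describes these letters only, and binding was not measured.

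Among the subunit genes, none passed the test against CTR, and CTR replicate 1 set the size of several differences. Nfkb1 encodes p105, the precursor of p50. It was at 65.3, 173 and 186 CPM in CTR and at 166, 165 and 166 CPM in TDE-treated libraries. Rel, which encodes c-Rel, was at 41.9, 175 and 205 CPM in CTR and at 170, 170 and 169 CPM in TDE-treated libraries. For both genes CTR replicate 1 was the lowest of all 9 libraries, and the other CTR libraries were above the TDE-treated ones. The log2 difference of 0.23 for Nfkb1 (SE 0.333, adjusted p = 0.637) became -0.12 (adjusted p = 0.265) without CTR replicate 1. That of Rel went from 0.27 (SE 0.467, adjusted p = 0.689) to -0.17 (adjusted p = 0.237).

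Rela encodes p65, the subunit that carries the main transactivation domain of the classical dimer. It was at 157, 97.7 and 96.8 CPM in CTR and at 89.5, 92.2 and 90.2 CPM in TDE-treated libraries, which was -0.37 on the log2 scale (SE 0.195, adjusted p = 0.208) and -0.11 (adjusted p = 0.279) without CTR replicate 1. Nfkb2 encodes p100, the precursor of p52 in the non-canonical pathway, and had the smallest log2 difference of the 10 genes in this comparison. It was at 172, 154 and 154 CPM in CTR and at 148, 151 and 150 CPM in TDE-treated libraries (log2 fold change -0.10, SE 0.110, adjusted p = 0.548, and -0.05 without CTR replicate 1). The groups did not overlap for either gene, and both had their highest value in CTR replicate 1.

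Relb, whose product pairs with p52 and is needed for dendritic cell development, was at 245, 149 and 148 CPM in CTR and at 125, 126 and 118 CPM in TDE-treated libraries. All TDE-treated libraries were under all CTR libraries. The log2 difference was -0.55 (SE 0.201, adjusted p = 0.0965). It came to -0.28 (adjusted p = 0.0114) without CTR replicate 1 and to -0.67 (adjusted p = 0.0481) without CTR replicate 3. Relb was thus the subunit gene whose call depended on the libraries used.

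**Figure D2:**
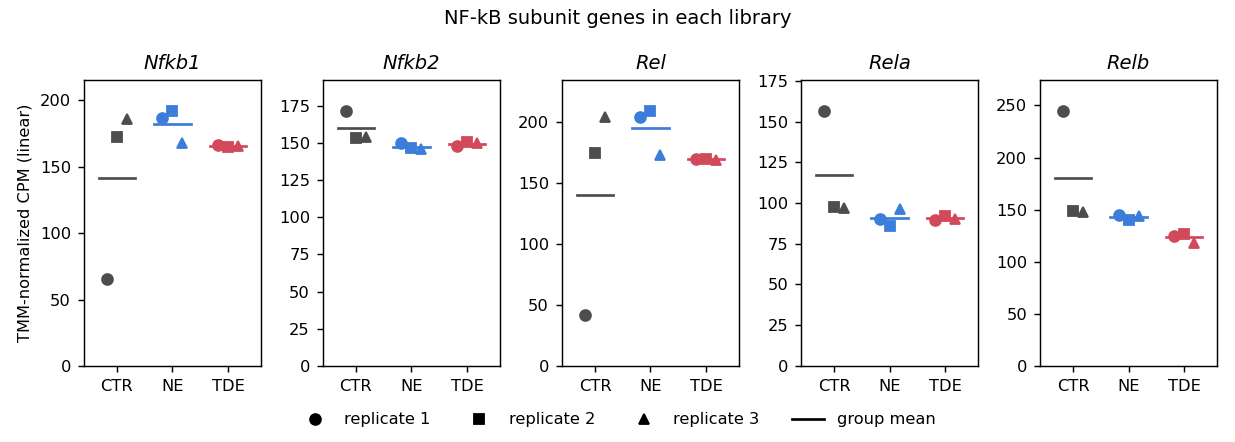
TMM-normalized CPM (linear axes from 0) of the NF-kB subunit genes Nfkb1, Nfkb2, Rel, Rela and Relb in each CTR, NE-treated and TDE-treated library, with group means as lines. CTR replicate 1 is the lowest library for Nfkb1 and Rel and the highest for Nfkb2, Rela and Relb, and the TDE-treated libraries lie under the NE-treated ones for Nfkb1, Rel and Relb.

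When CTR replicate 1 was left out, 3 of the 10 genes passed as higher (Nfkbiz, Nfkbia and Tnfaip3) and 2 as lower (Nfkbie and Relb) in TDE-treated against CTR BMDCs. In that fit the shares of all tested genes were 16.4% and 18.0%. The deviation of CTR replicate 1 from the other CTR libraries ran, on the log2 scale, from -2.17 for Rel, the longest of the 10 genes in the table, to 1.33 for Nfkbib, the shortest. With an offset per library fitted to gene length, an alternative chosen after the data were seen, 3 genes passed as higher and 1 as lower. That setting called 25.1% of all tested genes in either direction.

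**Figure D3:**
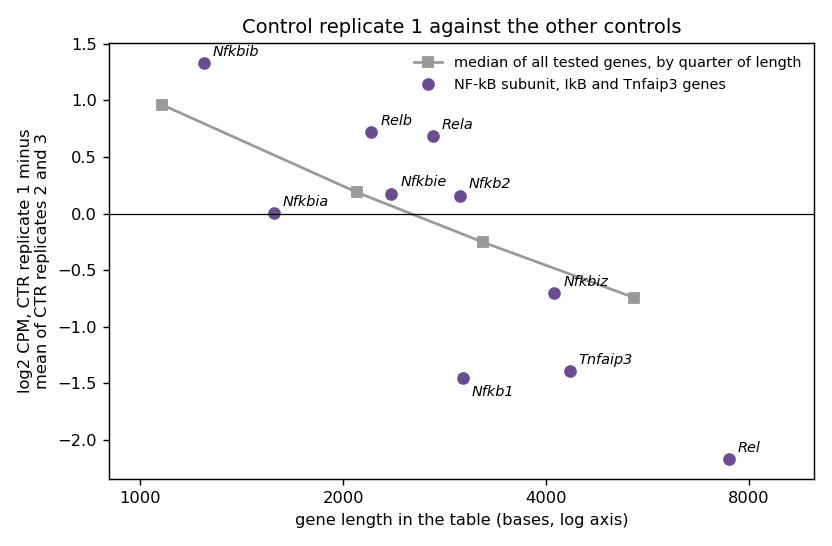
Difference in log2 CPM between CTR replicate 1 and the mean of CTR replicates 2 and 3 (vertical axis) against gene length in bases in the deposited table (log axis). Circles are the 10 genes and squares the medians of all tested genes in 4 bins of length, which fall from 0.96 to -0.74, while Rel lies at -2.17 and Nfkbib at 1.33.

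The comparison with NE-treated BMDCs sets tumor cell exosomes against those of a fibroblast line, so tumor origin and cell type cannot be told apart. It uses no CTR library for its means, but shares the TDE-treated libraries with the comparison above and takes its spread from all 9 libraries. Nfkbiz and Nfkbia were higher in TDE-treated than in NE-treated BMDCs (2 of 10 genes, against 6.73% of all tested genes), and 0 of the 10 were called lower, against 7.21%. The TDE-treated and NE-treated libraries did not overlap for 8 of the 10 genes, against 54.5% of all tested genes.

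Nfkbiz was higher than in NE-treated BMDCs by 2.86 on the log2 scale (SE 0.207, adjusted p = 0.000127). Nfkbia was at 117, 117 and 145 CPM in NE-treated libraries, all under the TDE-treated ones, and it was higher by 1.25 on the log2 scale (SE 0.138, adjusted p = 0.000904). Tnfaip3 was at 53.6, 56.4 and 50.1 CPM in NE-treated libraries, all under the TDE-treated libraries (log2 fold change 1.06, SE 0.325, adjusted p = 0.0681). Nfkbie was at 54.4, 54.1 and 57.6 CPM in NE-treated libraries, again above each TDE-treated library (log2 fold change -0.34, SE 0.116, adjusted p = 0.0922). Without CTR replicate 1 in the estimate of the spread, Tnfaip3 (adjusted p = 9.4e-06), Nfkbie (0.00462) and Relb (0.0170) passed as well, which made 3 higher and 2 lower, against 19.2% and 21.5% of all tested genes in that fit.

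Relb was at 144, 140 and 144 CPM in NE-treated libraries, so that each TDE-treated library was lower (log2 fold change -0.21, SE 0.201, adjusted p = 0.601). Nfkb1 was at 187, 192 and 168 CPM and Rel at 205, 210 and 173 CPM in NE-treated libraries, in each case just above the TDE-treated range (adjusted p = 0.879 and 0.871). Rela was at 90.2, 86.2 and 96.4 CPM and Nfkb2 at 150, 147 and 146 CPM, which overlapped the TDE-treated libraries. Nfkbib was at 29.7, 29.7 and 41.1 CPM and the TDE-treated libraries were only just above it (log2 fold change 0.33, SE 0.358, adjusted p = 0.661).

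With NE treatment against CTR, 0 of the 10 genes were called in either direction by edgeR, and 0% of all tested genes were. At an unadjusted p under 0.05 there were 0 of the 10 genes and 487 of all tested genes. DESeq2 and limma voom also called 0 of the 10, and 3 and 18 of all tested genes. The log2 fold changes ran from -0.56 for Nfkbib (SE 0.359) to 0.48 for Rel (SE 0.467), both genes for which CTR replicate 1 lay apart. For the genes that rose with TDE treatment, the log2 difference with NE treatment was 0.09 for Nfkbiz (SE 0.195), -0.07 for Nfkbia (SE 0.136) and 0.15 for Tnfaip3 (SE 0.323). NE-treated and CTR libraries did not overlap for 3 of the 10 genes (Nfkb2, Rela and Relb, all lower in NE-treated BMDCs), against 7.71% of all tested genes, and each of these had its highest value in CTR replicate 1. Without it, 0 of the 10 genes were called, against 0% of all tested genes as higher and 0.0196% as lower.

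**Figure D4:**
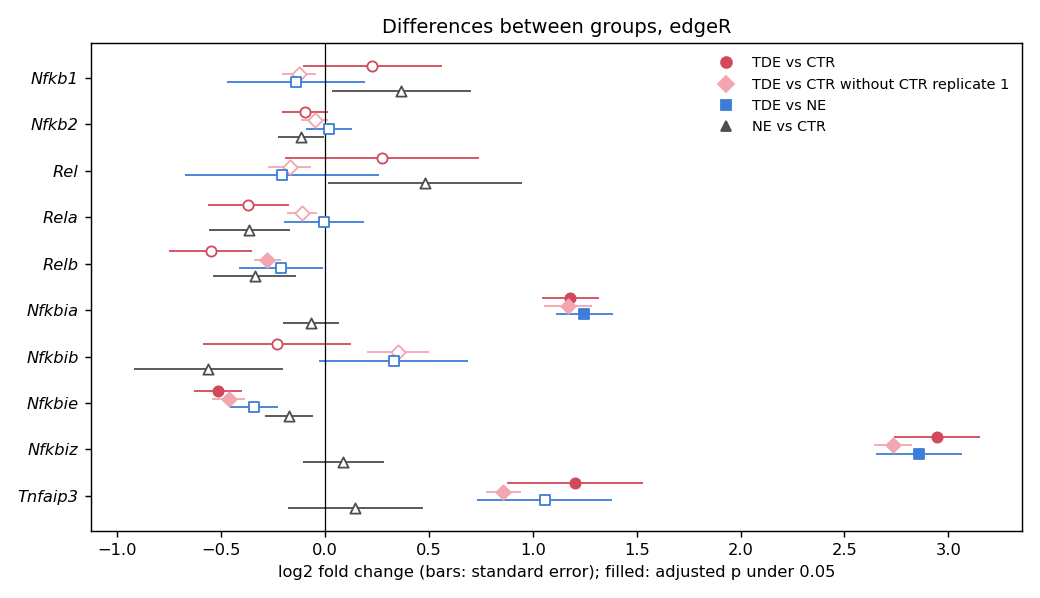
Log2 fold changes of the 10 genes with their standard errors (horizontal axis) for TDE-treated against CTR, the same without CTR replicate 1, TDE-treated against NE-treated, and NE-treated against CTR BMDCs. Filled symbols have an adjusted p under 0.05. Nfkbiz (2.94), Nfkbia (1.18) and Tnfaip3 (1.20) lie to the right for TDE treatment, and the NE-treated against CTR values have open symbols for all 10 genes.

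To compare levels between genes, length-corrected levels (TPM) were computed from the estimated reads and the gene lengths in the table. In CTR replicates 2 and 3, Nfkbia had the highest level of the 10 genes (178 and 171 TPM) and Nfkbiz the lowest (12.0 and 13.5 TPM). In CTR replicate 1, Nfkbia was at 79.5 TPM, under Relb at 105 TPM. In TDE-treated BMDCs, Nfkbia reached 372 ± 12.9 TPM (SD, n = 3). It was followed by Relb (109 ± 3.54 TPM), Nfkb1 (108 ± 0.356 TPM) and Nfkb2 (98.3 ± 1.18 TPM), of which Relb and Nfkb1 differed by less than their spread. Nfkbiz came next with 79.8 ± 2.02 TPM. Nfkbib (66.3 ± 2.68 TPM) and Rela (65.3 ± 1.20 TPM) were within each other's spread, and Tnfaip3 (50.1 ± 2.80 TPM), Rel (44.5 ± 0.176 TPM) and Nfkbie (36.2 ± 1.94 TPM) were lowest. These levels rest on the lengths in the table, which for Nfkb1 is 3007 bases, against 12061 exonic bases of all its transcripts in GENCODE vM21.

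The summed level of the IkB genes Nfkbia, Nfkbib and Nfkbie was 477, 484 and 462 TPM in TDE-treated libraries and lay between 169.9 and 286.5 TPM in the CTR and between 259 and 277 TPM in the NE-treated libraries. The summed level of the 5 subunit genes was 424, 430 and 422 TPM in TDE-treated libraries, 241, 467 and 536 TPM in CTR and 423 to 520 TPM in NE-treated libraries. The ratio of the first sum to the second was 1.13, 1.13 and 1.10 in TDE-treated BMDCs. It was 0.706, 0.614 and 0.519 in CTR and 0.506, 0.511 and 0.655 in NE-treated libraries, so that the TDE-treated libraries were above all others on this mRNA ratio. Nfkbia made up 77.3% to 79.1% of the IkB sum in TDE-treated and 61.1% to 61.6% in NE-treated libraries. In CTR replicates 1, 2 and 3 its share was 46.8%, 62.0% and 61.7%.

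The annotated positions of the genes (GENCODE vM21, build GRCm38) bear on how far their reads can be assigned. Nfkbiz lies on chromosome 16 from 55811375 to 55838899, Nfkbia on chromosome 12 from 55489410 to 55492647, Tnfaip3 on chromosome 10 from 19000910 to 19015657 and Nfkbie on chromosome 17 from 45555703 to 45563169. No exon of these 4 genes overlapped an exon of another gene. Exons of Nfkbib overlapped those of Ccer2 (14.5% of its exonic bases) and Sirt2 (1.9%), and exons of Nfkb2 those of Psd (6.5%) and of a noncoding RNA (11.6%), each on the opposite strand. The strand used in counting is not given in the sources used here, so some reads of Nfkbib and Nfkb2 could belong to these neighbors.

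Genes around the 10 were followed in hand-written lists ordered by their role in the pathway. Their counts against CTR stand beside 7.57% higher and 9.34% lower of all tested genes, and beside 16.4% and 18.0% without CTR replicate 1. The 26 genes named from the lists kept their direction and passed the test without that library as well (26 of 26). For some of them the log2 fold change without CTR replicate 1 is given with the gene. For Nos2, Il1r1 and Ccr7 it was 7.85, 2.43 and -0.996. Of 4 other genes of IkB proteins and their partners, Bcl3, a nuclear IkB protein that binds p50 and p52 homodimers, rose in TDE-treated against CTR BMDCs from 48.0 ± 11.3 to 84.1 ± 2.05 CPM (SD, n = 3; log2 fold change 0.81, adjusted p = 0.0140). Nfkbid, the gene of the nuclear protein IkB-NS, fell from 47.1 ± 16.9 to 25.8 ± 0.401 CPM (SD, n = 3; log2 fold change -0.87, adjusted p = 0.0378, and -0.55 without CTR replicate 1). Of the 4 genes, 1 was higher and 1 lower with and without CTR replicate 1. Nuclear IkB genes were therefore found in both directions, with Nfkbiz and Bcl3 higher and Nfkbid lower.

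Of 11 IkB kinases and upstream kinases, Tab2, an adaptor of the kinase TAK1, rose (log2 fold change 0.60, adjusted p = 0.0392) and Map3k14, which encodes the NF-kB-inducing kinase NIK of the non-canonical pathway, fell (log2 fold change -0.49, adjusted p = 0.0399). The other 9 did not pass. Of all tested genes, 7.57% rose and 9.34% fell. With CTR replicate 1 left out, 5 rose and 1 fell, against 16.4% and 18.0% of all tested genes. Of 22 ubiquitin enzymes and partners of A20, 4 rose and 0 fell, against 7.57% and 9.34% of all tested genes. The largest changes were those of Zc3h12a, the gene of the ribonuclease Regnase-1 that degrades inflammatory mRNAs, from 41.5 ± 1.75 to 133 ± 3.78 CPM (SD, n = 3; log2 fold change 1.68, adjusted p = 8.72e-05), of Tnip1, the gene of the A20-binding protein ABIN-1 (log2 fold change 1.27, adjusted p = 0.000357), and of the ubiquitin ligase gene Birc3 (log2 fold change 1.13, adjusted p = 0.0305). These counts became 8 and 2 without CTR replicate 1, against 16.4% and 18.0% of all tested genes. The median log2 fold change of this list was 0.29, and that of all tested genes was -0.06.

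Of 16 adaptors and receptor-proximal kinases, 4 rose and 0 fell, against 7.57% and 9.34% of all tested genes. Irak3 encodes IRAK-M, a negative regulator of toll-like receptor signaling, and went from 58.7 ± 18.4 to 424 ± 8.28 CPM (SD, n = 3; log2 fold change 2.85, adjusted p = 0.000328). Ticam1, which encodes the adaptor TRIF, rose by 1.0 on the log2 scale (adjusted p = 0.00115) and the kinase gene Ripk2 by 0.55 (adjusted p = 0.015). Leaving out CTR replicate 1 gave 7 and 0, against 16.4% and 18.0% of all tested genes. Of 21 receptors, 5 rose and 1 fell, among them Il1r1, the signaling interleukin-1 receptor (log2 fold change 2.89, adjusted p = 0.00791), Tlr1 (1.44, adjusted p = 0.00162), Tlr9 (0.87, adjusted p = 0.0196) and, lower, Il18r1 (-1.11, adjusted p = 0.00436). The fit without CTR replicate 1 called 8 and 4, beside the same shares of all tested genes.

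Of 10 ligands, 7 were tested. Il1b went from 160 ± 45.9 to 883 ± 6.93 CPM (SD, n = 3; log2 fold change 2.46, adjusted p = 0.000378) and Il1a from 11.7 ± 2.77 to 50.6 ± 6.98 CPM (SD, n = 3; log2 fold change 2.11, adjusted p = 0.000620). Tnfsf13b, the gene of the B cell survival factor BAFF, fell (log2 fold change -1.02, adjusted p = 0.0305). The other 4 did not pass, and 7.57% of all tested genes rose and 9.34% fell. Leaving out CTR replicate 1 gave 3 higher and 1 lower, against 16.4% and 18.0% of all tested genes.

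Of 40 textbook NF-kB target genes, 37 were tested, 16 rose and 5 fell, against 7.57% and 9.34% of all tested genes. Their median log2 fold change was 0.64, and that of all tested genes was -0.06. Without CTR replicate 1 the counts were 22 and 6, against 16.4% and 18.0% of all tested genes. Nos2, the gene of inducible nitric oxide synthase, rose most, from 1.10 ± 0.785 to 362 ± 14.9 CPM (SD, n = 3; log2 fold change 8.32, adjusted p = 0.000337). It was followed by Ptgs2, which encodes cyclooxygenase-2 (log2 fold change 5.89, adjusted p = 6.13e-05). The acute phase gene Saa3 went from 587 ± 665 CPM in CTR, a spread larger than the mean, to 9405 ± 258 CPM (SD, n = 3; log2 fold change 4.0, adjusted p = 0.0109, and 5.52 without CTR replicate 1). Among genes with a mean of at least 5 CPM, Csf1 (-1.53, adjusted p = 0.00466) and the chemokine receptor gene Ccr7 (-1.42, adjusted p = 0.0131) fell most. The maturation marker Cd83 came next (-1.07, adjusted p = 0.0436, and -0.60 without CTR replicate 1). Vcam1, at a mean of 4.18 CPM, fell by more than Cd83 (-1.12, adjusted p = 0.0424). Against NE-treated BMDCs, 18 of the 37 were higher and 3 lower, where 6.73% and 7.21% of all tested genes were. The lists are not independent, since 7 genes stand in more than 1 of the hand-written lists (Birc3, Tnip1, Zc3h12a, Traf1, Cd40, Tnf and Il1b).

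The KEGG NF-kappa B map, as the table assigns it to genes, held 426 entries. Of these, 420 were not among the 10 genes, and 89 of the 420 were tested. The map shares 51 genes with the hand-written lists, among them Ptgs2, Il1r1 and Il1b. Of the 89 tested, 12 rose and 12 fell in TDE-treated against CTR BMDCs, against 7.57% and 9.34% of all tested genes. Without CTR replicate 1, 25 rose and 20 fell, against 16.4% and 18.0%. Ptgs2, Il1r1 and Il1b rose most. The immunoglobulin heavy chain genes Igha (-3.93, adjusted p = 0.00551), Ighg1 (-3.28, adjusted p = 0.00719) and Ighg2b (-2.97, adjusted p = 0.00119) fell most on the log2 scale. Their values without CTR replicate 1 were -2.83, -2.48 and -2.60, and the summed lymphocyte markers were at 22.6 to 42.0 CPM in CTR and 11.5 to 12.0 CPM in TDE-treated libraries. In NE-treated against CTR BMDCs, edgeR, DESeq2 and limma voom called 0 genes of each of these lists. At an unadjusted p under 0.05 (edgeR) there were 487 of the 15028 tested genes. Among them were 4 textbook targets, 5 of the KEGG map, 2 receptors, 1 ligand, 1 of the IkB list and 0 of the others. Those of the textbook, receptor, ligand and IkB lists were all lower in NE-treated BMDCs. The median log2 fold change of the textbook targets was -0.44, and that of all tested genes was 0.0048. The part of CTR replicate 1 in this median was not tested.

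**Figure D5:**
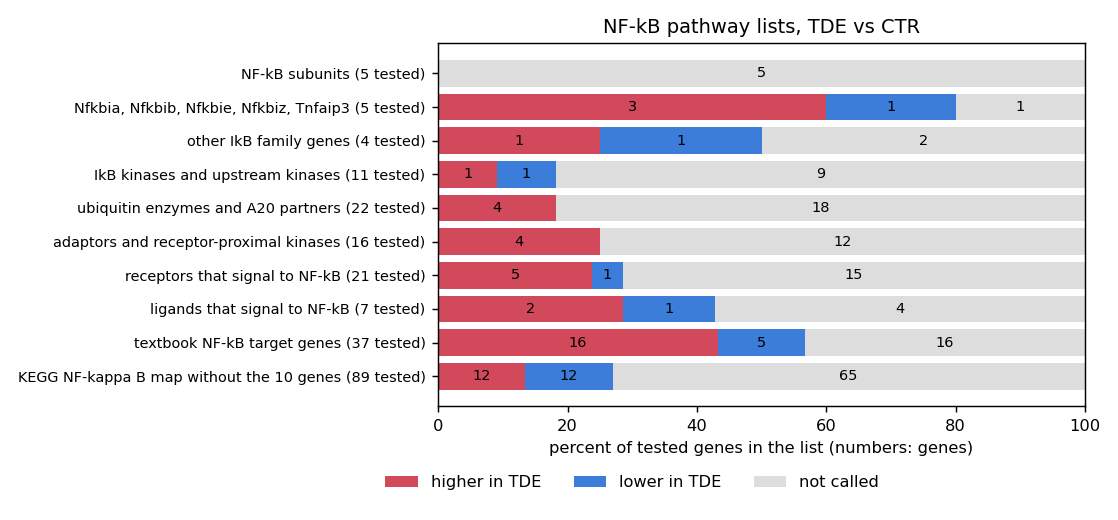
Percent of the tested genes of each list (horizontal bars from 0 to 100) that were higher, lower or not called in TDE-treated against CTR BMDCs, with the number of genes written in each segment. The subunit genes hold no call, and the textbook target genes have 16 higher and 5 lower of 37.

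Markers of other cells moved with TDE treatment. Of all tested genes, 7.57% rose and 9.34% fell against CTR, or 16.4% and 18.0% without CTR replicate 1. Neutrophil markers summed to 7413 to 28980 CPM in CTR, 7800 to 11110 CPM in NE-treated and 3437 to 3729 CPM in TDE-treated libraries, and 7 of 10 fell against CTR. Of the dendritic cell markers 6 of 10 fell. The highest CTR value of both sums belonged to CTR replicate 1, and without it the CTR sums were at most 9739 and 5145 CPM, with 9 of 10 genes lower in each list. Macrophage markers summed to 3864 to 4458 CPM in CTR and 5065 to 5421 CPM in TDE-treated libraries, where 1 of 10 rose (Adgre1, which encodes F4/80, from a mean of 378 to 2229 CPM) and 2 fell, or 2 and 6 without CTR replicate 1. Fibroblast and epithelial markers were near 0 (at most 8.05 and 12.8 CPM summed over a list), and the fibroblast list held 1 gene that rose, the epithelial list 1 that fell. No list had a marker at 0 in all libraries. In bulk RNA a change in the share of a cell type and a change in RNA per cell cannot be told apart, and the part of these markers in the differences of the 10 genes was not tested.

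The genes whose levels followed Nfkbiz most closely over the 9 libraries, by Pearson's r of log2 CPM, were Dusp16 (0.998), Pgap2 (0.998), Ntng2 (0.998), Synpo (0.997) and Zdhhc6 (0.997). This describes a pattern in which the TDE-treated libraries are high and all 6 others low. The log2 fold changes of these genes in TDE-treated against CTR BMDCs ran from 1.70 for Ntng2 to 2.68 for Dusp16.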

How the data were processed

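Per the study's methods and the submitters' processing notes, reads were aligned with TopHat2 2.1.1 and tested with DESeq2 1.24.0 in R 3.3.1. The counting program, its strand setting, genome build and annotation are not given in the sources used here. The authors deposited estimated counts (expected counts) per gene for 9 libraries, without normalization, with a mean per group that was not used. Between 5964 and 7750 entries per library were fractional, and the values were rounded. Genes were filtered with filterByExpr, scaled by TMM and tested with the quasi-likelihood F test of edgeR 4.0.16 in R 4.3.3, with 1 mean per group over all 9 libraries and Benjamini-Hochberg adjustment over 15028 genes. DESeq2 1.42.0 and limma 3.58.1 gave alternatives. A standard error is the size of the log2 fold change divided by the square root of F. A value of 0.5 was added to CPM before taking log2 for correlations. The code was tested on simulated data.

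The 10 genes and all lists were chosen with earlier results of these data known. Beyond them, in each list up to 3 called genes with the highest and 3 with the lowest log2 fold change against CTR were named where libraries did not overlap and the mean over libraries reached 5 CPM. The 5 genes most like Nfkbiz met the same minimum. Alternatives were median-ratio factors, library totals, no filter, at least 10 counts in every library, the 6 libraries compared, a replicate block, DESeq2, limma voom with quality weights, each library left out, and a log2 fold change of at least 1. A gene length offset and the list counts, named list genes and markers without CTR replicate 1 were added after seeing the data.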

Additional observations from a re-analysis of the deposited data

How the results depend on the processing

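Nfkbiz and Nfkbia kept their direction and their call against CTR and NE-treated BMDCs under 18 of 18 alternatives each. Of the 10 genes, 4 were called in TDE-treated against CTR BMDCs (all tested genes: 7.57% higher, 9.34% lower). There were 2 with library totals, the 6 libraries compared or a replicate block (13.4%, 7.93% and 8.55% of all genes). With no filter 3 were called (6.00%), and with limma voom 6 (52.5%). DESeq2 (20.6%) and the length offset (25.1%) called 4 each. Leaving out 1 library gave 2 to 5, against 7.15% to 34.4% of all genes. Against NE-treated BMDCs 2 were called (all tested genes: 6.73% higher, 7.21% lower), and 5 with the 6 libraries compared (41.9% of all genes). Limma voom called 8 (55.3%) and the gene length offset 4 (21.2%). With 1 library left out 2 to 5 were called (6.29% to 40.7% of all genes), the 5 without CTR replicate 1 (40.7%). Deviations of same-numbered libraries had correlations from -0.659 to 0.245. With 3 libraries per group, these cannot show whether the numbers mark a pairing, and the main test used none. The replicate block called 2 against NE-treated BMDCs (7.82% of all genes) and 0 in NE-treated against CTR BMDCs (0% of all genes). Against CTR it gave an adjusted p of 0.0738 for Tnfaip3 and 0.0817 for Nfkbie. Library totals moved the median of all genes in NE-treated against CTR BMDCs from 0.0048 to 0.124 on the log2 scale.

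These log2 differences changed sign, none of them past the threshold except Nfkbib under limma voom. In TDE-treated against CTR BMDCs, limma voom gave -0.068 for Nfkb1, -0.067 for Rel and 0.28 for Nfkbib, and the length offset 0.24 for Nfkbib. With 1 library left out, Nfkb1 ran from -0.125 to 0.48, Rel from -0.17 to 0.65 and Nfkbib from -0.48 to 0.35. Against NE-treated BMDCs, Nfkb2 was -0.041 with library totals, and Rela was 0.0143 with median-ratio factors, 0.0084 with no filter, 0.0188 with DESeq2, 0.0318 with limma voom, 0.0087 with the length offset and -0.042 to 0.049 with 1 library left out. In NE-treated against CTR BMDCs, library totals gave 0.0224 for Nfkb2 and 0.0565 for Nfkbia, the length offset 0.0947 for Nfkbia and -0.0504 for Nfkbiz, and limma voom -0.0784 for Nfkbiz and -0.143 for Tnfaip3. With 1 library left out, Nfkbib ran from -0.81 to 0.0305, Nfkbiz from -0.115 to 0.21 and Tnfaip3 from -0.19 to 0.36. Except for Rela, the value without CTR replicate 1 is one end of each of these ranges. The cause of the other changes was not tested.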
